A study of Mus musculus with 8 samples.

Results

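A set of 10 genes that mark the lining of blood vessels was followed in whole mouse testes: Pecam1, Cdh5, Tek, Tie1, Flt1, Kdr, Emcn, Eng, Egfl7 and Vwf. They were taken by name, from a table of 54532 genes, and each matched 1 row. RNA was sequenced from 8 testes, 1 library per C57BL/6J mouse, 4 of the control genotype Spdyafl/fl (Sync-Spdya fl/fl) and 4 of the genotype Spdyafl/fl;Ddx4-CreERT2 (Sync-Spdya cKO, here cKO). Both groups carried the floxed Spdya gene, whose product Speedy A activates CDK2 at the telomeres of spermatocytes. Both were given the inhibitor of retinoic acid synthesis WIN 18,446 from postnatal day 2 for 7 days and then retinoic acid on postnatal day 9, so that spermatogenesis started in step. Both were injected with tamoxifen, at RA7.5 and RA8.5 according to the labels (days after retinoic acid), and testes were taken at RA11.5, at an age of 20.5 postnatal days. Only the cKO mice carried the tamoxifen-inducible Cre, which the Ddx4 promoter drives in germ cells, so the deletion was aimed at germ cells and not at the vessels. The comparison asked, gene by gene, whether the endothelial genes differed between testes with and without that germ cell deletion.

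Endothelial cells line the vessels that run between the seminiferous tubules, in the interstitium that also holds Leydig cells, macrophages and pericytes; the tubules themselves have no vessels. VE-cadherin and PECAM-1 hold neighbouring endothelial cells together, the VEGF receptors and the Tie receptors carry the main growth and survival signals of the vessel wall, and endoglin presents ligands of the TGF-beta and BMP family to receptor complexes. These genes are widely used as markers of endothelium in mixed tissue.

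None of the 10 endothelial genes passed the test between the groups. All 10 had a log2 fold change above 0 (cKO minus control), with a median of 0.50 over the 7 that could be tested in the main analysis, beside 0.01 over all 12141 genes tested. A log2 fold change above 0 was found in 52% of these genes, and in 53.6% of the 15937 genes of a fit with a lower filter, which the other 3 members needed. The largest differences were in Cdh5, Eng and Pecam1, with log2 fold changes of 0.72, 0.67 and 0.62. The summed level of the 10 genes ran from 14.5 to 24.5 FPKM in control and from 24.8 to 30.8 FPKM in cKO testes. Eng and Cdh5 made up 28.6% and 21.7% of this sum on average, and taken singly only Eng had no overlap between the groups. In RNA from a whole testis, more endothelial cells, more RNA per endothelial cell and a smaller share of RNA from other cells cannot be told apart.

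The values are FPKM, fragments scaled to the length of the gene and to the size of the library, so that levels can be compared between genes. A total of 13978342 to 17867570 fragments per control library and 15494873 to 19583091 per cKO library lay behind them. Control replicate 1 stood apart from the other libraries: mitochondrial genes made up 0.464% of its fragments, beside 2.20% to 3.74% in the other 7. It was the highest of the 8 libraries in 34.2% of all genes tested. The log2 fold change of each member is therefore also given without it. Spdya itself was at 19.7 to 23.8 FPKM in control and 17.7 to 30.5 FPKM in cKO libraries, with overlap. A gene level covers all exons and does not show the removal of exon 2, so it does not check the genotypes, and the libraries are named as they are labelled.

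**Figure D1:**
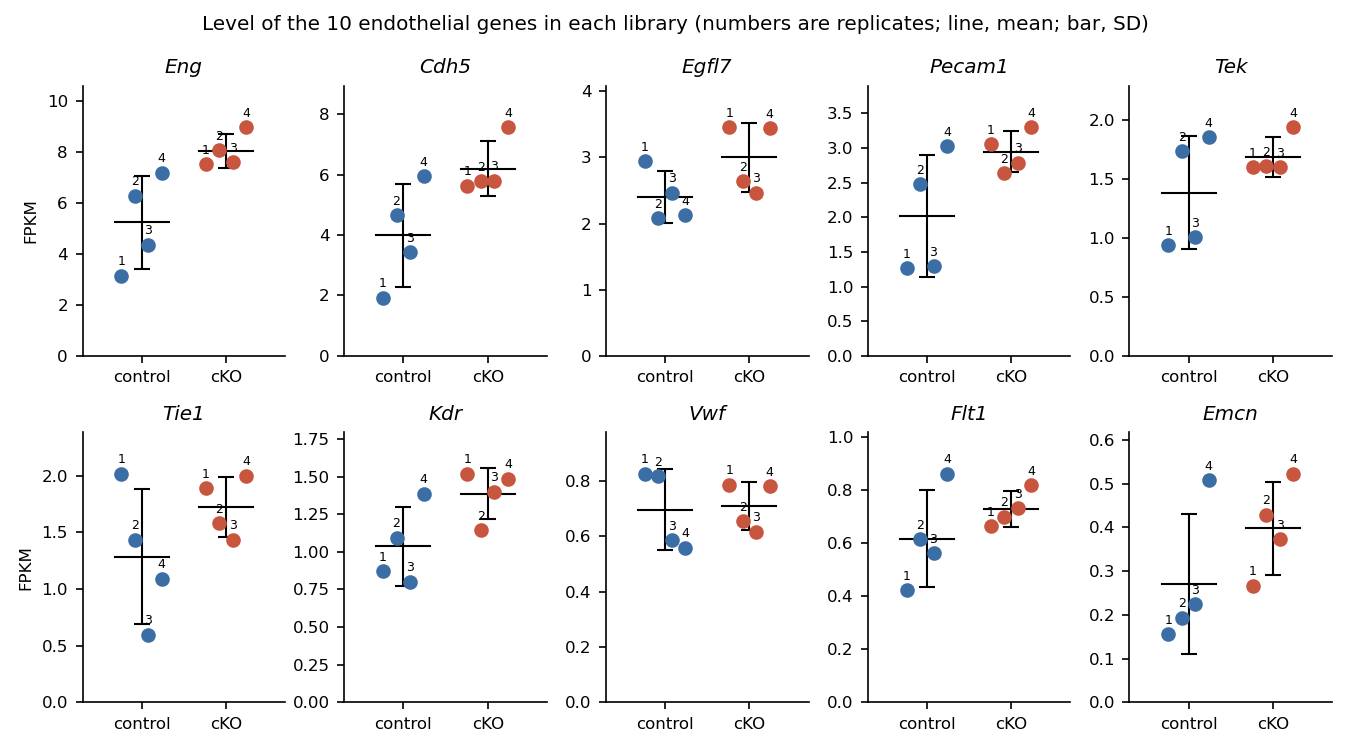
FPKM (y axis, from 0) of each endothelial gene in the 4 control (blue) and 4 cKO (red) libraries, with replicate numbers, the group mean as a line and the SD as a bar. In Eng the 4 cKO libraries, from 7.504 to 8.96, lie above the 4 control libraries, while in the other 9 genes the groups overlap.

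The genome windows before the start of 3 members are shown because these genes varied together across libraries and encode a receptor of each of the 3 signalling systems. The stretches cover 250 bases before the start in the RefSeq table (GRCm38.p6), 5′ to 3′ on the strand of the gene, with each GGAA or TTCC in capitals. GGAA is the core that ETS factors such as ERG and FLI1 recognise, and TTCC is the same motif on the other strand. Eng lies on the plus strand with the window chr2:32646345-32646594, Kdr on the minus strand with chr5:75978456-75978705, and Tek on the plus strand with chr4:94739039-94739288.
Eng: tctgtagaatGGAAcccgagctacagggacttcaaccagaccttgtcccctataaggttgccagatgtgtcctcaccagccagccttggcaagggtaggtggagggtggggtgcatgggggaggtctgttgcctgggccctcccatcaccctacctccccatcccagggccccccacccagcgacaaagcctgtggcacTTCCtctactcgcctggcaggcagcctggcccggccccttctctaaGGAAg
Kdr: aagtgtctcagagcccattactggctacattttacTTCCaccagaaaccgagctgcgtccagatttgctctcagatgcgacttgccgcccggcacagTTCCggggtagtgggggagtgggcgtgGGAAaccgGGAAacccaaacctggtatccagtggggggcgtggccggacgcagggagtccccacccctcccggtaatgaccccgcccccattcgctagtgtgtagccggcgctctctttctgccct
Tek: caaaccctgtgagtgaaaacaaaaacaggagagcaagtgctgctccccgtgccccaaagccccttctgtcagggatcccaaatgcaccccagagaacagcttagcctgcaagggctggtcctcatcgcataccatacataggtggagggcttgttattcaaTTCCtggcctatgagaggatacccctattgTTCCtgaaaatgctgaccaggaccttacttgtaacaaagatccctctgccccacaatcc
The window held 3 matches in Eng, 4 in Kdr and 2 in Tek, while the median over the 32851 promoters of the table was 3. A match on either strand was found in 93.4% of all promoters. Of the 9 promoters listed for 7 members (Tek, Tie1, Flt1, Kdr, Emcn, Eng and Egfl7), 5 held at least 4 matches, beside 33.4% of all promoters. The motif GATAA, or TTATC on the other strand, was found in 1 of these 9, an Egfl7 promoter, and in 22.6% of all promoters. The matches describe the letters only.

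Endoglin, encoded by Eng (ENSMUSG00000026814, chromosome 2, 32646595 to 32682669, plus strand, GRCm38), was the most abundant of the 10 genes. It was at 3.15, 6.28, 4.36 and 7.18 FPKM in control replicates 1 to 4 and at 7.504, 8.06, 7.59 and 8.96 FPKM in cKO replicates 1 to 4. Every cKO library lay above every control library, and Eng was the only one of the 7 tested members without overlap; 3.64% of all genes tested had no overlap with cKO higher. The mean was 5.24 ± 1.82 FPKM in control and 8.03 ± 0.669 FPKM in cKO testes (SD, n = 4 each). The log2 fold change was 0.67 ± 0.23 (SE), with an adjusted p of 0.333 by limma. An exact permutation test of this gene alone, two-sided, gave p = 0.0286, the smallest that 4 against 4 allow. The same exact permutation test gave p = 0.0571 for Kdr, 0.114 for Cdh5, Pecam1 and Egfl7, and 0.2 to 0.714 for the other 5 members. Leaving out control replicate 1 gave a log2 fold change of 0.45 ± 0.16. After median centring of the libraries the groups overlapped. Counting error was small beside the spread among control libraries: the lowest control level, in replicate 1, rested on 167 fragments, with an exact Poisson interval of 2.69 to 3.66 FPKM. Of the 4048 exon bases of Eng, 61 overlap Fpgs on the opposite strand.

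The partners of endoglin, receptors and proteins downstream of them, gave mixed values. Tgfbr2, the type II receptor for TGF-beta, was at 1.09 ± 0.288 FPKM in control and 1.84 ± 0.236 FPKM in cKO testes, with every cKO library above every control library and an adjusted p of 0.233. Id3, an inhibitor of DNA binding that BMP signalling induces, was likewise without overlap, at 7.25 ± 0.978 and 10.7 ± 2.22 FPKM (adjusted p = 0.266). Acvrl1, the type I receptor ALK1, had an unadjusted p of 0.0144 and an adjusted p of 0.337. Smad5, the most abundant gene of this group, was at 15.8 ± 1.67 and 15.3 ± 0.902 FPKM, and its log2 fold change of -0.043 turned above 0 without control replicate 1 and after rescaling to TPM. Of the 7 partners of endoglin, all tested, 3 had an unadjusted p below 0.05 with cKO higher and 0 with cKO lower, beside 5.89% and 5% of all genes tested, and 0 passed the adjusted test by limma.

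Cdh5 encodes VE-cadherin, the adhesion molecule of endothelial adherens junctions (ENSMUSG00000031871, chromosome 8, 104101625 to 104144511, plus strand). Its levels were 1.92, 4.65, 3.42 and 5.94 FPKM in control replicates 1 to 4 and 5.63, 5.78, 5.80 and 7.57 FPKM in cKO replicates 1 to 4. Control replicate 4 lay inside the cKO range, and 1 of the 4 cKO libraries was above it. The means were 3.98 ± 1.71 and 6.19 ± 0.918 FPKM, the log2 fold change was 0.72 ± 0.29 and the adjusted p was 0.413 by limma. Leaving out control replicate 1 gave 0.42 ± 0.18.

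Pecam1 encodes the adhesion molecule PECAM-1 (CD31), found along endothelial junctions and also on platelets and leukocytes (ENSMUSG00000020717, chromosome 11, 106654217 to 106750628, minus strand). It was at 1.26, 2.48, 1.29 and 3.03 FPKM in control and 3.06, 2.63, 2.79 and 3.30 FPKM in cKO replicates 1 to 4. The control libraries fell into a low pair (replicates 1 and 3) and a pair near the cKO level (replicates 2 and 4). The log2 fold change was 0.62 ± 0.27 with an adjusted p of 0.449, and 0.44 ± 0.25 without control replicate 1.

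Eng, Cdh5 and Pecam1 were the 3 of 7 members with an unadjusted p below 0.05 (0.0140, 0.0312 and 0.0443 by limma), all with cKO higher, beside 5.89% of all genes tested; 0 members were lower at that level, beside 5% of all genes. No member was called at an adjusted p below 0.05 with an absolute log2 fold change above 1, beside 0.0165% of all genes. With control replicate 1 left out, all 10 members still had a log2 fold change above 0, beside 57.3% of all genes. In that fit 4 of the 7 had an unadjusted p below 0.05 with cKO higher (Cdh5, Eng, Egfl7 and Tie1), beside 9.73% of all genes, and 2 (Eng and Egfl7) had no overlap, beside 8.33%. The count of 3 was 1 without control replicate 3 and 1 without cKO replicate 4, beside 4.02% and 2.98% of all genes. The single member without overlap became 0 after median centring of the libraries (3.97% of all genes), 4 without control replicate 4 (7.57%) and 2 without cKO replicate 2 (4.86%). Leaving out a library can only keep or raise this count.

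The junction list, 8 genes that seal or couple endothelial cells, gave 6 tested genes. All 6 had a log2 fold change above 0, beside 52% of all genes, with a median of 0.26. None had an unadjusted p below 0.05, and the smallest adjusted p by limma was 0.591. Without control replicate 1, 5 of the 6 were above 0, beside 57.3% of all genes. In that fit 1 had an unadjusted p below 0.05 with cKO higher by limma, beside 9.73%: Cldn5, named after its values were seen. It encodes a claudin of endothelial tight junctions that Sertoli cells also make. The log2 fold change of Cldn5 went from 0.18 to 0.53 (unadjusted p = 0.0137 and adjusted p = 0.208 by limma). F11r, the junctional adhesion molecule JAM-A and the most abundant of the list, was at 41.7 ± 6.32 FPKM in control and 48.1 ± 5.84 FPKM in cKO testes. It is also made by epithelial cells.

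The VEGF receptors were low. Kdr encodes VEGFR2, the main signalling receptor for VEGF-A (ENSMUSG00000062960, chromosome 5, 75932827 to 75978458, minus strand). Its levels were 0.870, 1.09, 0.801 and 1.39 FPKM in control and 1.52, 1.14, 1.40 and 1.49 FPKM in cKO replicates 1 to 4. In Kdr, 3 of the 4 cKO libraries lay above the control maximum. The log2 fold change was 0.41 ± 0.20, with an adjusted p of 0.520 by limma.

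Flt1 encodes VEGFR1, which binds VEGF tightly, signals weakly and is also made in a soluble form that traps the ligand (ENSMUSG00000029648, chromosome 5, 147561604 to 147726011, minus strand). It was at 0.424, 0.617, 0.564 and 0.863 FPKM in control and 0.665, 0.700, 0.733 and 0.820 FPKM in cKO replicates 1 to 4. Its mean stayed below 1 FPKM in both groups, so it was fitted with a lower filter (mean FPKM above 0.1 over all libraries, 15937 genes), where the log2 fold change was 0.24 with a 95% interval of -0.23 to 0.72. The highest library of all was a control, replicate 4. Kdr exceeded Flt1 in all 8 libraries, by a ratio of FPKM of 1.71 ± 0.269 in control and 1.91 ± 0.275 in cKO testes.

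Among the ligands, Vegfb was the most abundant and was at 11.1 ± 2.69 FPKM in control and 10.3 ± 0.807 FPKM in cKO testes. Its log2 fold change of -0.076 turned to 0.051 without control replicate 1. Of the 5 VEGF ligands and the 3 further receptors (Nrp1, Nrp2 and Flt4), 4 were tested and 0 had an unadjusted p below 0.05 by limma. Nrp2, a co-receptor shared by VEGF and semaphorins, was at 1.15 ± 0.600 and 1.60 ± 0.521 FPKM.

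The Tie receptors differed most from each other in control replicate 1. Pearson's r between Tek and Tie1 was 0.303 over the 8 libraries and 0.797 without that library. Tek encodes TIE2, the receptor for angiopoietins (ENSMUSG00000006386, chromosome 4, 94739289 to 94874976, plus strand). It was at 0.939, 1.73, 1.00 and 1.85 FPKM in control and 1.60, 1.61, 1.60 and 1.94 FPKM in cKO replicates 1 to 4. Controls 2 and 4 lay above 3 of the 4 cKO libraries, and controls 1 and 3 below all of them.

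Tie1 encodes a related receptor that modulates TIE2 signalling and binds no known angiopoietin with high affinity (ENSMUSG00000033191, chromosome 4, 118471191 to 118490061, minus strand). It was at 2.02, 1.44, 0.599 and 1.09 FPKM in control and 1.89, 1.58, 1.44 and 2.00 FPKM in cKO replicates 1 to 4. Control replicate 1, the lowest library of all 8 for Tek, was the highest for Tie1. The ratio of Tek to Tie1 was accordingly 0.466 in control replicate 1, 1.21 to 1.70 in the other controls and 0.846 to 1.11 in cKO libraries. The log2 fold changes were 0.32 ± 0.23 for Tek and 0.50 ± 0.31 for Tie1, with adjusted p of 0.671 and 0.611 by limma. When control replicate 1 was left out they were 0.17 ± 0.22 and 0.74 ± 0.27. The 5 angiopoietins and Tie partners gave 2 tested genes, of which 0 had an unadjusted p below 0.05; Dok2, an adaptor that binds TIE2, was the most abundant at 2.53 ± 0.724 and 2.66 ± 0.353 FPKM.

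Egfl7 encodes a protein that endothelial cells secrete into the matrix of growing vessels (ENSMUSG00000026921, chromosome 2, 26580014 to 26593120, plus strand). Its levels were 2.94, 2.08, 2.47 and 2.13 FPKM in control and 3.46, 2.64, 2.47 and 3.44 FPKM in cKO replicates 1 to 4. The groups overlapped through control replicate 1, the highest control. The log2 fold change was 0.31 ± 0.17 with an adjusted p of 0.558, and 0.40 ± 0.16 without control replicate 1. Of its 3581 exon bases, 264 are shared with Gm20532 on the same strand, which is listed at 0 in all 8 libraries, and 64 with Agpat2 on the opposite strand.

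Egfl7 is also the host of miR-126, a microRNA known for its abundance in endothelium, and its mature sequence is shown since it comes from a member's own locus. The RefSeq entry is mmu-miR-126a-3p, on the plus strand of chromosome 2 at 26591402 to 26591423 (GRCm38.p6), with the seed, bases 2 to 8, in capitals.
mmu-miR-126a-3p: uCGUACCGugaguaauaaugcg
The row of the Mir126a gene, which holds the hairpin, is listed at 0 in all 8 libraries, so these data hold no level of the microRNA.

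Vwf encodes von Willebrand factor, the large protein that carries factor VIII and binds platelets (ENSMUSG00000001930, chromosome 6, 125546774 to 125686679, plus strand). It was at 0.827, 0.817, 0.585 and 0.558 FPKM in control and 0.787, 0.655, 0.616 and 0.781 FPKM in cKO replicates 1 to 4. The controls lay on both sides of the cKO range, replicates 1 and 2 above all cKO libraries and replicates 3 and 4 below them. In the fit with the lower filter the log2 fold change was 0.03, with a 95% interval of -0.40 to 0.47. This was the only member whose direction depended on the analysis: it was -0.048 with array weights and between -0.051 and 0.11 when single libraries were left out.

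Emcn encodes endomucin, a sialomucin of capillaries and veins (ENSMUSG00000054690, chromosome 3, 137341067 to 137432185, plus strand). It was the lowest of the 10 genes, at 0.155, 0.194, 0.225 and 0.508 FPKM in control and 0.267, 0.428, 0.373 and 0.523 FPKM in cKO replicates 1 to 4. These levels rested on 11 to 48 fragments, and the exact Poisson interval of control replicate 1 ran from 0.0775 to 0.278 FPKM. The log2 fold change, with the lower filter, was 0.49 with a 95% interval of -0.19 to 1.17. With control replicate 1 left out, the log2 fold changes were 0.34 for Emcn, 0.34 for Kdr, 0.10 for Flt1 and 0.11 for Vwf.

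The order of mean levels over the 8 libraries was Eng (6.64 FPKM), Cdh5 (5.09), Egfl7 (2.70), Pecam1 (2.48), Tek (1.53), Tie1 (1.51), Kdr (1.21), Vwf (0.703), Flt1 (0.673) and Emcn (0.334). Eng was above Cdh5, Pecam1 above Tek, Kdr above Vwf and Flt1 above Emcn in all 8 libraries. Neighbours that changed place between libraries were Egfl7 and Pecam1 (Egfl7 higher in 5 of 8), Tek and Tie1 (Tek higher in 5), Vwf and Flt1 (Vwf higher in 4), Tie1 and Kdr (Tie1 higher in 6) and Cdh5 and Egfl7 (Cdh5 higher in 7). Egfl7 was above Cdh5 only in control replicate 1.

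**Figure D2:**
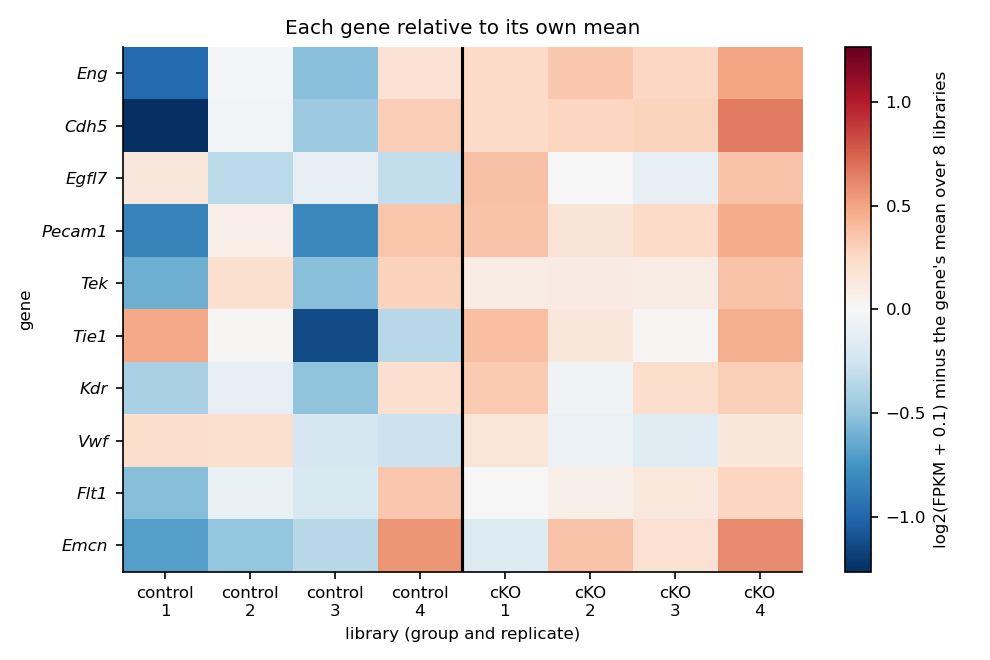
Level of each endothelial gene (rows, most abundant at the top) in each library (columns) as log2(FPKM + 0.1) minus the mean of the gene over the 8 libraries, red above and blue below it. Control replicates 1 and 3 are mostly blue, and control replicate 1 is red in Tie1, Egfl7 and Vwf.

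The control libraries spread more widely than the cKO libraries. The SD of log2(FPKM + 0.1) was larger over control than over cKO libraries in 6 of the 7 tested members, and in 81.3% of all genes tested. The median SD was 0.53 in control and 0.17 in cKO libraries for these 7, beside 0.25 and 0.13 over all genes. Among the other 3 controls the SD was larger over control in 6 of the 7 and in 64.9% of all genes. Control replicate 3 lay below every cKO library in all 10 members, although in Egfl7 it and cKO replicate 3 both round to 2.47 FPKM; this holds for 32.3% of all genes tested and 33% with the lower filter. Control replicate 1 lay below every cKO library in 7 of the 10, beside 32.3% of all genes. Control replicate 4 did so in 3 of the 7 tested members, beside 37.6% of all genes, and cKO replicate 4 was the highest library in 4 of the 7, beside 13.6%.

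The members differed in which control library was the highest. In 7 of the 10 (Pecam1, Cdh5, Tek, Flt1, Kdr, Emcn and Eng) the highest control was replicate 4, and in the other 3 (Tie1, Egfl7 and Vwf) it was replicate 1. Over the 8 libraries, Pearson's r between Cdh5 and Eng was 0.986, between Pecam1 and Tek 0.968 and between Pecam1 and Eng 0.950. Tie1 correlated with Vwf at 0.742 and with Egfl7 at 0.585, but with Eng at 0.231. Egfl7 and Vwf correlated at 0.505. Over all 45 pairs the median r was 0.585, with 18 pairs above 0.8 and 9 below 0, and the lowest was -0.469 for Emcn and Vwf. Without control replicate 1, Tie1 correlated with Eng at 0.903, above its 0.698 with Vwf and 0.559 with Egfl7. The median over all pairs was then 0.706 and 2 pairs were below 0. These correlations describe 8 libraries in 2 groups and share their scaling.

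**Figure D3:**
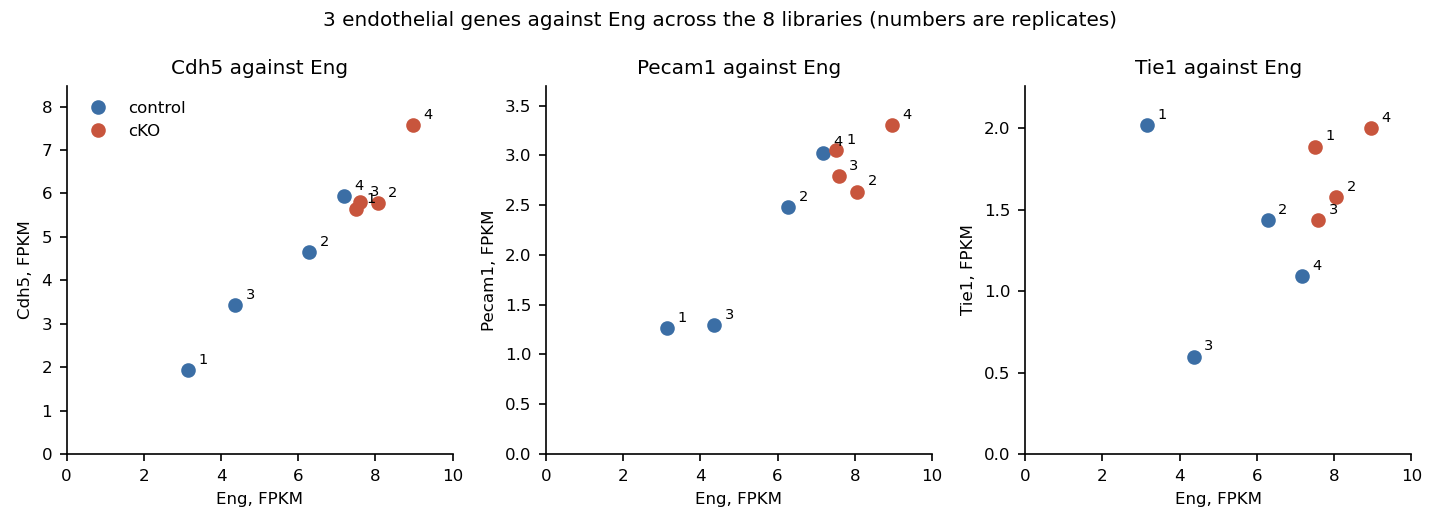
FPKM of Cdh5, Pecam1 and Tie1 (y axes) against FPKM of Eng (x axis) in the 8 libraries, control in blue and cKO in red, with replicate numbers. Cdh5 and Pecam1 lie along a line with Eng, and control replicate 1, with the lowest Eng at 3.15, has the highest Tie1 at 2.02.

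As shares of the summed FPKM of the 10 genes, Eng took 27.2% ± 3.69 in control and 30.0% ± 1.57 in cKO testes, and Cdh5 20.4% ± 4.86 and 23.1% ± 1.33. In control replicate 1 these were 21.7% and 13.3%, while Egfl7 took 20.3% and Tie1 13.9%. The shares in cKO libraries kept within narrow ranges, from 28.5% to 31.9% for Eng and from 21.4% to 24.6% for Cdh5.

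**Figure D4:**
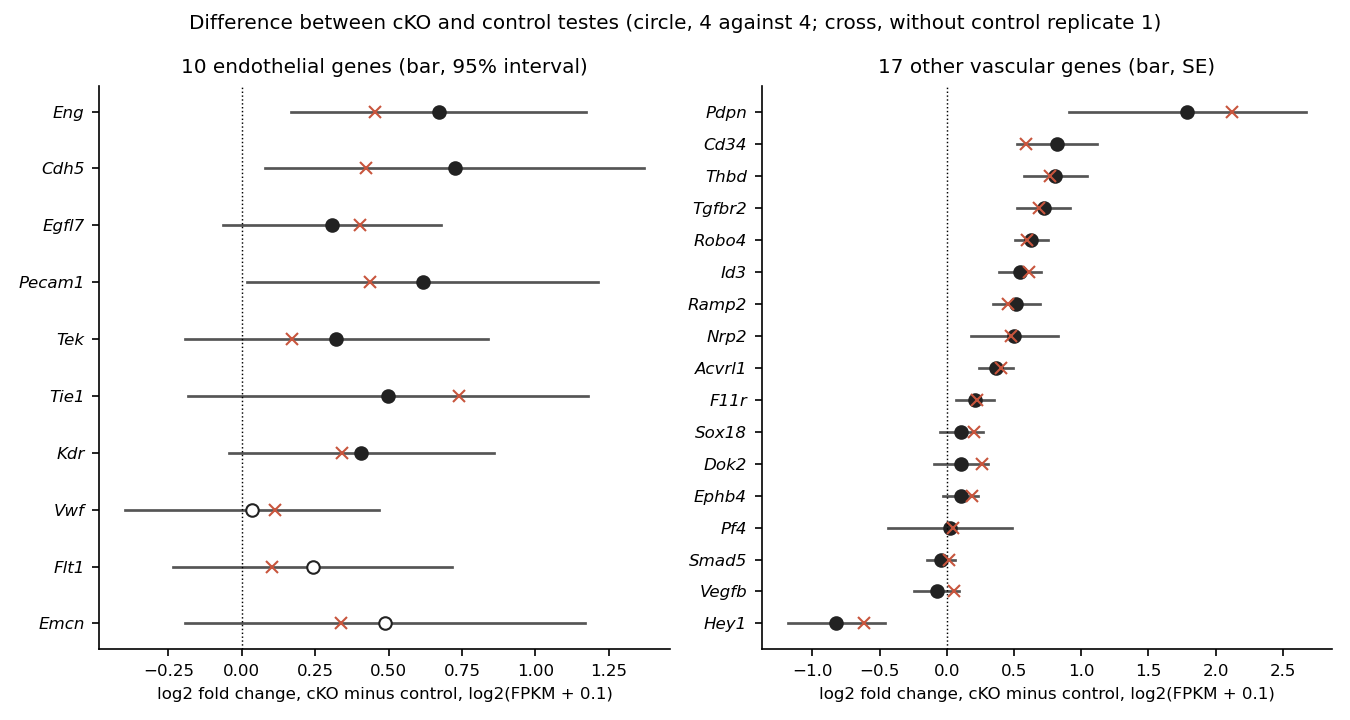
Log2 fold change (x axis, cKO minus control on log2(FPKM + 0.1)) of the 10 endothelial genes with 95% intervals (left) and of 17 other vascular genes with SE (right). Circles use 4 against 4 libraries, open where the gene was fitted with the lower filter, and crosses leave out control replicate 1. All 10 circles on the left lie above 0, and the intervals of 7 of them include it.

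Beyond the 10 members, 74 genes of vascular function were listed in 10 groups, of which 42 were tested. None passed the adjusted test by limma, where the smallest adjusted p was 0.138. A total of 7 had an unadjusted p below 0.05 with cKO higher and 1 with cKO lower, beside 5.89% and 5% of all genes, and their median log2 fold change was 0.21. With control replicate 1 left out the 7 became 11, beside 9.73% of all genes, and with control replicate 4 left out 15, beside 7.53%. The 4 of 42 without overlap, with cKO higher, were Robo4, Tgfbr2, Id3 and Ramp2, beside 3.64% of all genes.

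Of the 19 listed surface and secreted genes of endothelium, 10 were tested and 4 were among these 7, beside 5.89% of all genes. All 10 had a log2 fold change above 0, beside 52% of all genes, with a median of 0.46. Robo4, an endothelial receptor that stabilises vessels, had the smallest p. It was at 3.64, 4.02, 3.91 and 4.05 FPKM in control and 5.53, 5.65, 5.83 and 7.53 FPKM in cKO replicates 1 to 4. Its groups stood clear of each other and its control libraries kept close together, with a log2 fold change of 0.63 ± 0.12 and an adjusted p of 0.138. Without control replicate 1 the adjusted p was 0.0762.

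Thrombomodulin, encoded by Thbd and a cofactor of protein C activation, was at 5.44 ± 1.92 FPKM in control and 9.22 ± 1.32 FPKM in cKO testes (adjusted p = 0.266). Cd34, a sialomucin of endothelium and of blood progenitors, was at 2.53 ± 1.19 and 4.30 ± 1.06 FPKM (adjusted p = 0.368). Ramp2, which makes the calcitonin receptor-like receptor respond to adrenomedullin, was at 1.11 ± 0.211 and 1.62 ± 0.192 FPKM without overlap (adjusted p = 0.341). Each was below the threshold only before adjustment.

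The 8 Notch and ephrin genes gave 6 tested genes, 3 above and 3 below 0, beside 52% of all genes above 0. Hey1, a target of Notch signalling in arteries, was at 9.07, 3.73, 11.1 and 3.10 FPKM in control and 3.30, 3.16, 3.61 and 3.03 FPKM in cKO replicates 1 to 4. Control replicates 1 and 3, the lowest controls for Eng, Cdh5, Pecam1, Tek and Kdr, had the highest Hey1, and the other controls lay near the cKO libraries. Its log2 fold change was -0.82 ± 0.36 with an unadjusted p of 0.0473 and an adjusted p of 0.452 by limma, and -0.62 with an unadjusted p of 0.115 without control replicate 1. Ephb4, a venous receptor for ephrin-B2, was the most abundant of this group at 16.2 ± 2.30 and 17.4 ± 2.09 FPKM.

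Of the 9 endothelial transcription factors, 5 were tested, with a median log2 fold change of 0.11 and 0 at an unadjusted p below 0.05 by limma. Sox18 was the most abundant at 8.98 ± 1.98 and 9.50 ± 0.566 FPKM. The 7 partners of von Willebrand factor gave 1 tested gene, the platelet factor Pf4, at 1.24 ± 0.614 and 1.27 ± 0.696 FPKM. Of the 3 lymphatic genes only Pdpn was tested, which epithelial and stromal cells also make: it was at 0.704 to 10.8 FPKM in control and 2.41 to 26.5 FPKM in cKO testes, a spread wider than the difference between the groups, with an adjusted p of 0.518.

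Markers of other interstitial cells, and erythroid markers, moved with the endothelial genes across the libraries. The 8 macrophage markers summed to 16.7 to 28.5 FPKM in control and 31.6 to 41.2 FPKM in cKO testes, without overlap. All 7 tested had a log2 fold change above 0, beside 52% of all genes. Of these 7, 5 had an unadjusted p below 0.05 with cKO higher by limma, beside 5.89% of all genes. Without control replicate 1 the count was 4, beside 9.73%. The 6 Leydig cell markers summed to 16.5 to 37.9 and 28.6 to 46.7 FPKM, with 3 of 3 tested above 0. The 9 markers of pericytes and smooth muscle summed to 51.0 to 84.7 and 82.2 to 115 FPKM (6 of 6 above 0), and the 5 erythroid markers to 10.8 to 39.8 and 22.0 to 46.7 FPKM (3 of 3 above 0). Markers outside the filter went both ways. Control and cKO means were 0.576 and 0.572 FPKM for Insl3, 0.855 and 0.712 FPKM for Tagln and 0.901 and 0.734 FPKM for Hba-a2. Those of Cyp17a1, Cyp11a1, Cspg4, Cnn1, Alas2 and Cd163 were higher in cKO testes. An unadjusted p below 0.05 with cKO higher by limma was found for 2 Leydig, 2 pericyte and smooth muscle and 1 erythroid markers. Without control replicate 1 these counts were 0, 3 and 0. In each of these 4 lists cKO replicate 4 was the highest library, no marker was at 0 in any library and none passed the adjusted test by limma. Their part in the endothelial values was not tested.

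The 7 Sertoli cell markers, from inside the tubules, summed to 349 to 511 FPKM in control and 430 to 517 FPKM in cKO testes. All 7 had a log2 fold change above 0, beside 52% of all genes, with 0 at an unadjusted p below 0.05 by limma. The highest library was cKO replicate 4 here too. Without control replicate 1, 6 of the 7 were above 0, beside 57.3% of all genes. In that fit 3 had an unadjusted p below 0.05 with cKO higher by limma, beside 9.73%. The 6 spermatogonial markers summed to 110 to 116 and 109 to 119 FPKM, with 4 above and 2 below 0. The 6 spermatocyte markers, the most abundant of these lists, summed to 709 to 999 and 603 to 931 FPKM. Of the 5 tested, 1 had a log2 fold change above 0 and 4 below, with a median of -0.18. In each of these 2 germ cell lists 1 gene had an unadjusted p below 0.05 with cKO lower by limma, beside 5% of all genes. The spermatid markers summed to 1.17 FPKM at most. Over the 8 libraries the mean of the 7 tested endothelial genes correlated with the mean of the macrophage list at r = 0.937. It correlated with the erythroid list at 0.893, the Leydig list at 0.889 and pericytes and smooth muscle at 0.786. With Sertoli cells r was 0.189 and with spermatocytes -0.629. Without control replicate 1 these were 0.919, 0.843, 0.836, 0.799, 0.697 and -0.62, so the low value of the Sertoli list rests on that library. These values share depth, scaling and the 2 groups, and are given without a test.

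**Figure D5:**
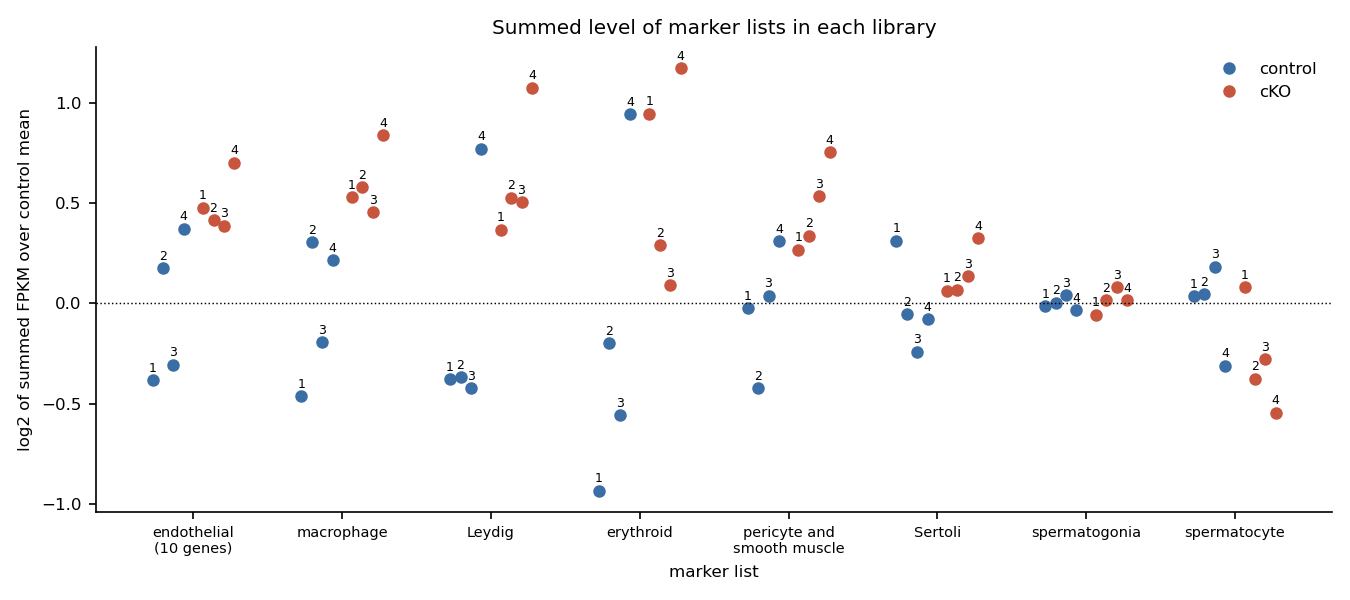
Log2 of the summed FPKM of each marker list over its mean in control (y axis) for each library, control in blue and cKO in red, with replicate numbers. The endothelial and macrophage lists have all 4 cKO libraries above all controls, the other lists overlap, and cKO replicate 4 is the highest in the first 6 lists.

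The genes most like the members were found by Pearson's r over the 8 libraries with the mean log2 level of the 7 tested members. The 10 highest were Mtap (0.991), Ace (0.987), Angptl4 (0.981), Plxnd1 (0.980), Il6ra (0.978), Lfng (0.974), Csf1r (0.973), Qpct (0.972), Gabbr1 (0.971) and Vcam1 (0.970). Among these, Ace encodes the angiotensin-converting enzyme, which endothelium carries and of which germ cells make a form of their own, and it was at 2.39 FPKM in control and 3.99 FPKM in cKO testes. Plxnd1 encodes an endothelial semaphorin receptor, at 4.36 and 5.58 FPKM, and Vcam1 a leukocyte adhesion molecule, at 1.04 and 1.82 FPKM. Csf1r, the receptor for macrophage growth factor, was at 1.63 and 2.67 FPKM and belongs to the macrophage list. Mtap, with the highest r, was at 4.52 and 5.80 FPKM, and Qpct, the most abundant of the 10, at 40.6 and 58.4 FPKM. Neither is on a vascular or marker list used here. Over the 12134 other genes tested the median r was -0.067. After removal of the 2 libraries farthest from the median (control replicates 1 and 3), r for the 10 genes ran from 0.849 to 0.980.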

How the data were processed

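Whole-testis RNA of 8 mice was sequenced as paired ends, and the authors deposited FPKM values for 54532 genes, made by a sequencing company with its own software. The aligner, the counter and the use of strand are not given in the sources used here; the submitters' processing notes name GRCm38 and mm10. All 10 members had the start and end of GENCODE vM21 on GRCm38. FPKM multiplied by gene length gave whole fragments in 100% of values above 0 (tolerance 0.02), and the deposited values already hold a scaling of library size. The authors' own calls were not used.

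The test was limma 3.58.1 in R 4.3.3 with a trend of variance on mean. It compared log2(FPKM + 0.1) of the 4 cKO with that of the 4 control libraries, with no covariate, for the 12141 protein-coding genes whose mean FPKM exceeded 1 in each group. A call needed both a p under 0.05 after Benjamini-Hochberg adjustment and a log2 fold change beyond 1 in size; fold changes on this scale are understated for low genes. Flt1, Emcn and Vwf came from a fit of the 15937 genes above a mean of 0.1 FPKM over the 8 libraries. No count model was used. Exact permutation tests used all 70 assignments. The procedure was tested on simulated data with known changes. These were larger than those of the members and no simulated library stood apart, so the simulation does not cover differences as small as theirs. Confidence intervals are at 95%, and Poisson intervals cover counting error only. Replicates were separate mice. Scripts used Python 3.11.15, pandas 2.3.3, scipy 1.17.1 and matplotlib 3.10.9.

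All 10 members are described. Of the other vascular genes, those called, those with an unadjusted p below 0.05 and the most abundant of each list are named, and so are the 10 genes most like the members. The members and lists were chosen with earlier results of these data known. Promoters and the microRNA come from RefSeq, and 7 of 10 members matched a promoter. Alternatives were 2 other pseudocounts, 3 other filters, centring, rescaling to TPM, array weights, a replicate block, voom on whole fragments, eBayes with no trend and each library left out.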

Additional observations from a re-analysis of the deposited data

Results flagged for a closer look

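In 3 cases 1 cKO library lay far from the other 3 of its group by Dixon's test. All 3 were cKO replicate 4, with Cdh5 at 7.57 FPKM (the others at 5.63 to 5.80), Tek at 1.94 FPKM (the others at 1.60 to 1.61) and Robo4 at 7.53 FPKM (the others at 5.53 to 5.83). A total of 56 groups of 4 libraries were looked at, for which chance gives 2.8 such cases. The cause was not tested.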

How the results depend on the processing

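Of 178 values of the 10 members under alternatives, 173 kept their direction, and 0 had an adjusted p below 0.05 by limma; the smallest was 0.0735. The 5 that turned were all of Vwf, at -0.048 with array weights and from -0.051 to 0.11 without single libraries. No member was called under any alternative. The count of members with an unadjusted p below 0.05 and cKO higher, 3 of 7, was 1 of 1 tested with a mean FPKM above 5, and 1 to 4 without single libraries (1 without control replicate 3 and 1 without cKO replicate 4). The count without overlap, 1, was 0 after median centring and 1 to 4 without single libraries (2 without control replicate 1, 4 without control replicate 4, 2 without cKO replicate 2). Of the other vascular genes, 7 of 42 with cKO higher (5.89% of all genes) became 11 of 74 when all genes were fitted (5.61%), 3 of 16 when a mean FPKM above 5 was required (4.49%), 14 of 42 with array weights (11.01%) and 5 to 15 without single libraries (11 without control replicate 1, 15 without control replicate 4, beside 9.73% and 7.53%). The 1 with cKO lower became 0 for all genes fitted, a mean FPKM above 5, eBayes without trend and voom, and 0 to 2 without single libraries (2 without control replicate 2 and 0 without control replicate 1, control replicate 3 or any one cKO replicate). With array weights 1 vascular gene was called, Pdpn, at an adjusted p of 0.0375, and Acvrl1, Robo4 and Tgfbr2 had an adjusted p below 0.05. That fit weighted control replicate 1 at 0.161 and cKO replicate 3 at 4.45. In it 11.01% of all genes had an unadjusted p below 0.05 with cKO higher by limma, beside 5.89% in the main fit. The share of all genes passing the adjusted test in that fit is not given here, so these calls stand without a background. Directions also turned for Pf4 (-0.36 with array weights, -0.36 to 0.29 without single libraries), Smad5 (0.035 with TPM, 0.011 with array weights, -0.11 to 0.018), Vegfb (0.0021 with TPM, -0.22 to 0.051), Dok2 (-0.020 to 0.26) and Sox18 (-0.062 to 0.20). The cause was not tested.

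The groups share replicate numbers, but no label ties a number to a litter, and deviations of same-numbered libraries correlated at 0.288, 0.131, 0.0757 and 0.406, so the numbers were not taken as pairing; 2 of 4 cKO libraries correlated best with their own number. With the replicate block, 11 of 42 vascular genes had an unadjusted p below 0.05 with cKO higher, beside 7.83% of all genes, and no member or vascular gene was called.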

Other observations

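Of the 42 other vascular genes tested, 9 (21.4%) were highest of the 8 libraries in control replicate 1, as Tie1 was, beside 34.2% of all genes tested. Among them Cldn5, a claudin that Sertoli cells also make, was at 14.8 FPKM there and at 4.20 to 9.11 FPKM in the other 7. Klf2, the transcription factor that blood flow induces in endothelium, was at 16.7 FPKM there and at 5.40 to 10.2 FPKM in the others. Plvap, the protein of endothelial fenestrae, was at 2.76 FPKM there and at 0.998 to 2.67 FPKM in the others. These 3 genes were chosen after their values were seen.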
